A study of Mus musculus with 3 samples.

Results

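This account covers 10 genes, 4 FoxO transcription factors (Foxo1, Foxo3, Foxo4, Foxo6) and 6 ubiquitin ligases tied to muscle wasting (Fbxo32, Trim63, Trim54, Trim55, Fbxo30, Trim32), of 35562 genes measured by bulk RNA sequencing of mouse myoblasts. They were taken by symbol, and all 10 were matched. The samples were 3 myoblast lines, 66, 67 and 72, that form 1 group. All carried the genotype Dmdmdx; Pax7-nGFP, that is the mdx mutation of dystrophin, which CRISPR/Cas9 editing had been used to correct, and a nuclear GFP reporter of the satellite cell gene Pax7. The cells came from intraspecies mouse chimeras made with edited induced pluripotent stem cells, and were purified by their GFP before sequencing. The labels give neither the age of the chimeras, nor which of them had tamoxifen, nor whether each line came from an animal of its own, so every spread given here is a spread between 3 lines of 1 library each. Pax7-nGFP mouse myoblasts and embryonic fibroblasts were not analysed here, so there is no unedited or healthy group to set the levels against.

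FoxO factors are forkhead transcription factors that insulin and IGF signalling holds out of the nucleus, through phosphorylation by AKT. When that signal falls, as in fasting, disuse or glucocorticoid excess, they enter the nucleus and switch on a wasting programme in muscle. Its best known targets are Fbxo32 (atrogin-1, the F-box subunit of a cullin-based ligase) and Trim63 (MuRF1, a RING ligase of thick filament proteins). Since FoxO activity is set largely by where the protein sits in the cell, an mRNA level does not report it.

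The files list transcripts without positions, and GENCODE M21 places the genes on GRCm38. The FoxO genes lie at chr3:52268336-52353221 (Foxo1, plus strand), chr10:42181841-42276755 (Foxo3, minus), chrX:101254528-101260873 (Foxo4, plus) and chr4:120267079-120287349 (Foxo6, minus). The MuRF genes lie at chr4:134315120-134329629 (Trim63), chr5:31116712-31137630 (Trim54) and chr3:19644474-19692421 (Trim55), all on the plus strand. Fbxo32 lies at chr15:58175879-58214932 on the minus strand, Fbxo30 at chr10:11281330-11298052 and Trim32 at chr4:65604986-65616238, both on the plus strand.

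Within each family the proteins share a core, and the coding sequence of that core shows how members can be told apart in sequencing. The 75-base stretches most alike across the coding sequences of each family are printed below, 5′ to 3′ on the coding strand, with capitals at the positions where the family differs. In the 4 FoxO genes the stretch lies in the forkhead domain, spans the junction of neighbouring coding exons, and has the same base at 63 of 75 positions.
Foxo1: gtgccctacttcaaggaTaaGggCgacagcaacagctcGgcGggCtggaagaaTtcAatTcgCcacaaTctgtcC
Foxo3: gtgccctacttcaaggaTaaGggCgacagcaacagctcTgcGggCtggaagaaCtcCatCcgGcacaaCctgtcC
Foxo4: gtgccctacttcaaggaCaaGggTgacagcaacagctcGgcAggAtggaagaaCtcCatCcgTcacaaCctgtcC
Foxo6: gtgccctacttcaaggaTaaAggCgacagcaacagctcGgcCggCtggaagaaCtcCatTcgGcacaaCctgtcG

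In the 3 MuRF genes the stretch lies in exon 1, in the part that encodes the RING domain, and 59 of 75 positions are the same. On GRCm38 it sits at chr4:134315275-134315349 in Trim63, chr3:19644669-19644743 in Trim55 and chr5:31116970-31117044 in Trim54, each on the plus strand.
Trim63: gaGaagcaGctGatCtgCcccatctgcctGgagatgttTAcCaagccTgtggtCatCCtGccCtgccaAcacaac
Trim55: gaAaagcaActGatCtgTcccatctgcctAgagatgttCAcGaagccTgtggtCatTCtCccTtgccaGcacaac
Trim54: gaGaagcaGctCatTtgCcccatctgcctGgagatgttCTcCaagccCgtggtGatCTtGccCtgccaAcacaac

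Even here no pair was identical: FoxO pairs had the same base at 66 to 70 and MuRF pairs at 60 to 68 of 75 positions. Of all 31-base words in the listed transcripts of Foxo4, Foxo6, Trim55 and Trim32, 100% occurred in no other listed gene. The share was 99.9% for Foxo3, 99.6% for Trim63, 99.5% for Fbxo30, 95.8% for Fbxo32, 92.0% for Foxo1 and 78.9% for Trim54. The shared words of Trim54 all lay in the antisense gene Gm15469, which held 4, 3 and 2 estimated counts in lines 66, 67 and 72. Foxo1 shared 615 words with the antisense gene Gm20402, which was at 0 in every line, and Fbxo32 shared 158 with the antisense gene Gm15943, which held 1, 8 and 10 estimated counts. The strand setting of the counting is not given in the sources used here. For these 3 genes, reads that lie within the shared words could therefore not be told apart from reads of the antisense partner.

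The libraries held between 66972426 and 73274315 estimated counts. The labelled cell type was checked against its markers: all 11 myoblast genes averaged over 10 TPM (transcripts per 1000000, a level per length), with Pax7 at 136, 143 and 154 TPM and Myod1 at 791, 702 and 579 TPM in lines 66, 67 and 72. Of 8 endothelial and 8 immune genes, 1 and 2 reached a mean of 1 TPM, and the immune genes Adgre1 and Tyrobp were at 0. Among 11 fibroblast genes 5 reached it, Col3a1 being the highest, while Lum and Dpt were at 0. Col1a2, at 7.47, 28.3 and 37.0 TPM, was more than 2-fold lower in line 66 than in both other lines, and the adipocyte gene Lpl, at 4.29, 4.44 and 12.3 TPM, more than 2-fold higher in line 72. The summed TPM of the fibroblast list was 247, 320 and 446, that of the adipocyte list 7.44, 9.93 and 15.5, that of the endothelial list 8.61, 10.1 and 7.41, and that of the immune list 5.84, 4.24 and 5.54. The fibroblast sum was carried by Col3a1, Prrx1 and Col1a2: the other 8 genes summed to 7.57, 9.40 and 5.53 TPM, and 4 of the 11 were higher in line 72 than in line 66. Without Lpl the adipocyte sum was 3.15, 5.49 and 3.17 TPM. In bulk RNA, fewer cells of a type and less RNA per cell cannot be told apart.

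The muscle-specific RING ligases stood at the top of the order and their best known relative near its foot. Trim55 (MuRF2, which binds microtubules and the titin kinase region) was at 50.3, 60.9 and 70.6 TPM in lines 66, 67 and 72, with a mean of 60.6 ± 10.1 TPM (SD, n = 3). Trim54 (MuRF3, which stabilises microtubules during myoblast differentiation) was at 34.6, 53.8 and 59.5 TPM, with a mean of 49.3 ± 13.1 TPM (SD, n = 3). For both genes line 66 was the lowest and line 72 the highest.

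Trim63 was at 2.205, 3.21 and 4.398 TPM, with a mean of 3.27 ± 1.10 TPM (SD, n = 3). Its estimated counts were 186, 251 and 355, and the exact 95% Poisson intervals of its level did not overlap, at 1.90 to 2.55, 2.83 to 3.64 and 3.95 to 4.88 TPM. The intervals of Trim54, Trim55 and Foxo4 did not overlap between lines either, and the share of all genes without overlap was not computed. Reads carry no molecular identifiers, so such intervals cover counting error only. Trim63 made up 2.84% ± 0.384 of the summed TPM of the 3 MuRF genes, Trim55 54.0% ± 3.31 and Trim54 43.2% ± 3.09 (SD, n = 3). These shares count a non-coding transcript of Trim55. With protein-coding transcripts only, Trim55 was at 35.8, 43.2 and 52.1 TPM and Trim54 at 34.6, 53.8 and 59.5 TPM. Trim55 exceeded Trim63 by 22.8, 19.0 and 16.04 times in the 3 lines. The sum of the 3 genes was 87.1, 118 and 134 TPM, and the share of Trim63 in it was 2.53%, 2.72% and 3.27%, so the make-up of the family varied less between lines than its sum.

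Fbxo32 was at 12.0, 11.3 and 16.04 TPM, with a mean of 13.1 ± 2.54 TPM (SD, n = 3). Lines 66 and 67 lay close together and line 72 lay above both. Fbxo32 exceeded Trim63 by 5.46, 3.53 and 3.65 times. Fbxo30 (MUSA1, an F-box ligase subunit that BMP signalling restrains) was at 28.7, 29.6 and 32.7 TPM, a mean of 30.3 ± 2.10 TPM (SD, n = 3), and so stood above Fbxo32 in every line, by 2.39, 2.61 and 2.04 times. Trim32, a ligase of actin, desmin and dysbindin whose mutation causes a limb-girdle muscular dystrophy, was at 20.6, 19.4 and 21.9 TPM, a mean of 20.6 ± 1.26 TPM (SD, n = 3). Its 3 lines differed less than those of Fbxo32.

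Among the FoxO factors, Foxo3 and Foxo4 shared most of the family's mRNA. Foxo3, the member most tied to both proteasomal and autophagic breakdown in muscle, was at 20.6, 18.7 and 19.2 TPM, a mean of 19.5 ± 0.995 TPM (SD, n = 3). Foxo4 was at 17.6, 19.3 and 24.4 TPM, a mean of 20.4 ± 3.52 TPM (SD, n = 3). Foxo3 was the higher of the pair in line 66, and Foxo4 in lines 67 and 72. Foxo3 held 39.8% ± 3.59 and Foxo4 41.4% ± 4.52 of the summed FoxO TPM (SD, n = 3), which was 47.2, 47.5 and 52.7.

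Foxo1, known in muscle for its part in wasting and in metabolic switching, was at 8.61, 8.88 and 8.46 TPM, a mean of 8.65 ± 0.215 TPM (SD, n = 3). By TPM it had the smallest range over the lines of the 10 genes, and 5.29% of the 12528 genes that averaged 1 TPM or more had a smaller one. With TMM-scaled CPM it was not the smallest, as Foxo1 ran from 47.4 to 52.1 and Trim32 from 43.0 to 46.3. Foxo3 exceeded Foxo1 by 2.39, 2.10 and 2.28 times. Foxo6, best known from the nervous system, was at 0.388, 0.629 and 0.635 TPM, a mean of 0.550 ± 0.141 TPM (SD, n = 3), from 64, 97 and 99 estimated counts. It was the only one of the 10 with a mean under 1 TPM, although its counts lay above the limit of 3 counts that a count of 0 allows.

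**Figure D1:**
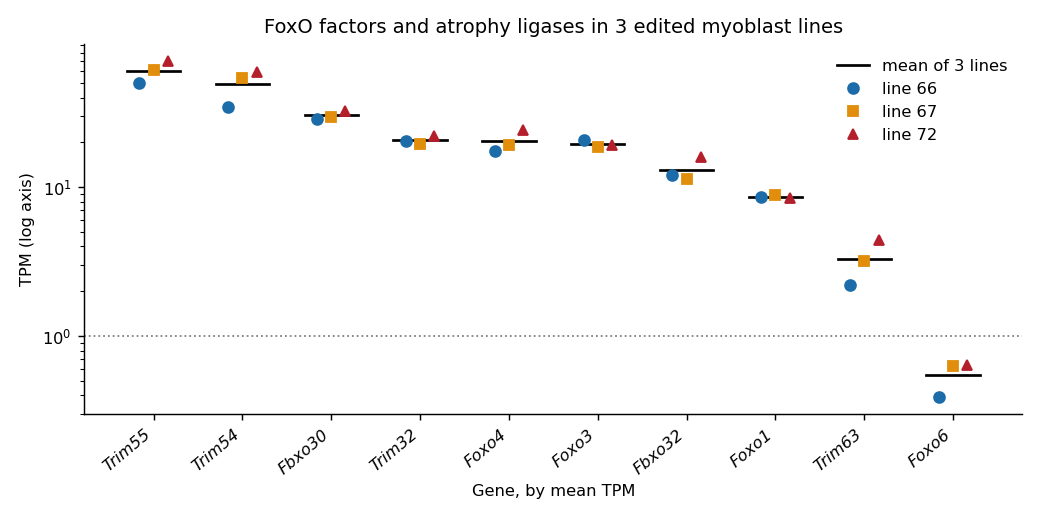
TPM of the 10 genes on a log axis, with a symbol for each line and a bar at the mean of 3 lines. The levels run from 60.6 TPM for Trim55 to 0.550 TPM for Foxo6, the dotted line marks 1 TPM, and Trim32, Foxo4 and Foxo3 sit together near 20 TPM.

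By mean TPM the order was Trim55, Trim54, Fbxo30, Trim32, Foxo4, Foxo3, Fbxo32, Foxo1, Trim63 and Foxo6. Of the 9 pairs of neighbours, 7 kept their order in all 3 lines, each with a mean difference on the log2(TPM + 1) scale beyond its SD. Each of these 7 had p = 0.25 in an exact two-sided sign-flip test over lines (0.321 after Benjamini-Hochberg adjustment over the 9 pairs), which is the smallest p that 3 lines allow. Trim32 and Foxo4, at a mean difference of 0.02 ± 0.18, and Foxo4 and Foxo3, at 0.05 ± 0.27, did not differ beyond their spread (SD, n = 3, log2, exact p = 0.75 for both). The top pair rested on a non-coding transcript: with protein-coding transcripts only, the difference of Trim55 to Trim54 was -0.15 ± 0.18 in place of 0.32 ± 0.19 (SD, n = 3, log2), and Trim55 was the higher in 1 line of 3.

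Set among all detected genes, the 10 lay from near the middle of the range to its upper part. Their median level was 4.38 on the log2(TPM + 1) scale, equal to the 4.38 of the 12528 genes that averaged 1 TPM or more and above the 0.88 of the 25510 genes detected. Trim55 lay above 89.2% and Trim54 above 87.0% of detected genes, Fbxo32 above 69.9%, Trim63 above 58.1% and Foxo6 above 46.8%.

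No ligase or FoxO gene stood apart in any line by the rule applied to all genes, which asks for a line more than 2-fold above or below both others on TPM + 1. Of the 10 members, 9 averaged 1 TPM or more and were tested and 0 were called, while the share called among the 12528 genes was 0.782% for line 66, 0.559% for line 67 and 0.623% for line 72. At that background a count of 0 of 9 says nothing particular about the members. Each line is 1 library, so the call has no p-value. At 1.5-fold, Trim54 was called for its low level in line 66, as 1 of 933 genes or 7.45% of those tested.

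Below that threshold the members varied unequally. The highest line exceeded the lowest by 1.995 times in Trim63, 1.72 times in Trim54, 1.64 times in Foxo6, 1.42 times in Fbxo32, 1.40 times in Trim55 and 1.38 times in Foxo4. It did so by 1.14 times in Fbxo30, 1.13 times in Trim32, 1.10 times in Foxo3 and 1.05 times in Foxo1. The ranges of Trim54 and Trim63 exceeded those of 92.1% and 91.7% of the 12528 genes. The biological coefficient of variation between lines from edgeR, fitted over 15654 genes, was 0.306 for Trim63, 0.291 for Foxo6 and 0.203 for Trim54, and between 0.105 and 0.152 for the other 7, beside a median of 0.177 over all genes. That of Trim63 and Foxo6 lay close to the trend at their low counts (0.297 and 0.327), whereas that of Trim54 exceeded the trend at its count (0.147).

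In direction, 8 of the 10 were highest in line 72 and 6 lowest in line 66 by TPM. The exceptions to the first were Foxo1, highest in line 67, and Foxo3, highest in line 66. Of the 9 tested members, which leave out Foxo6, 7 were highest in line 72 and 5 lowest in line 66, beside 44.4% and 44.2% of the 12528 genes. Among them Trim54, Trim55, Trim63, Fbxo30 and Foxo4 followed the sequence of line 66 below 67 below 72, as did 27.0% of the 12528 genes, of which 61.6% were higher in line 72 than in line 66. These 3 counts over the 9 were the same by CPM, by both count scalings and with protein-coding transcripts only, but the shares of all genes depended on the scale: with TMM-scaled CPM 17.8% followed the sequence, 29.9% were highest in line 72 and 37.5% lowest in line 66. Foxo6 followed the sequence by TPM, but by CPM it was at 0.873, 1.45 and 1.41 and so highest in line 67, as it was under both count scalings. The sign of each gene's ratio of line 72 to line 66 was the same by TPM, by CPM, by both count scalings tried and with protein-coding transcripts only, but for Trim32 that ratio on the log2 scale lay between 0.02 and 0.09 and for Foxo1 between -0.10 and -0.03.

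Markers of differentiated muscle moved along with these differences. All 14 of them were higher in line 72 than in line 66, 12 followed the same sequence of lines, and their summed TPM was 2118, 3044 and 3683. Myog, the differentiation factor, was at 168, 222 and 310 TPM, and the fusion gene Mymk at 67.6, 106 and 119 TPM. Myh8, the perinatal myosin, at 8.34, 18.8 and 27.2 TPM, and Tnnc2, a fast troponin, at 54.7, 111 and 126 TPM, were more than 2-fold lower in line 66 than in both other lines. The 10 cell cycle genes were also all higher in line 72 than in line 66, with summed TPM of 990, 1324 and 1326. The part of differentiation or of cycling in the line differences of Trim54, Trim55, Trim63 and Fbxo32 was not tested.

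**Figure D2:**
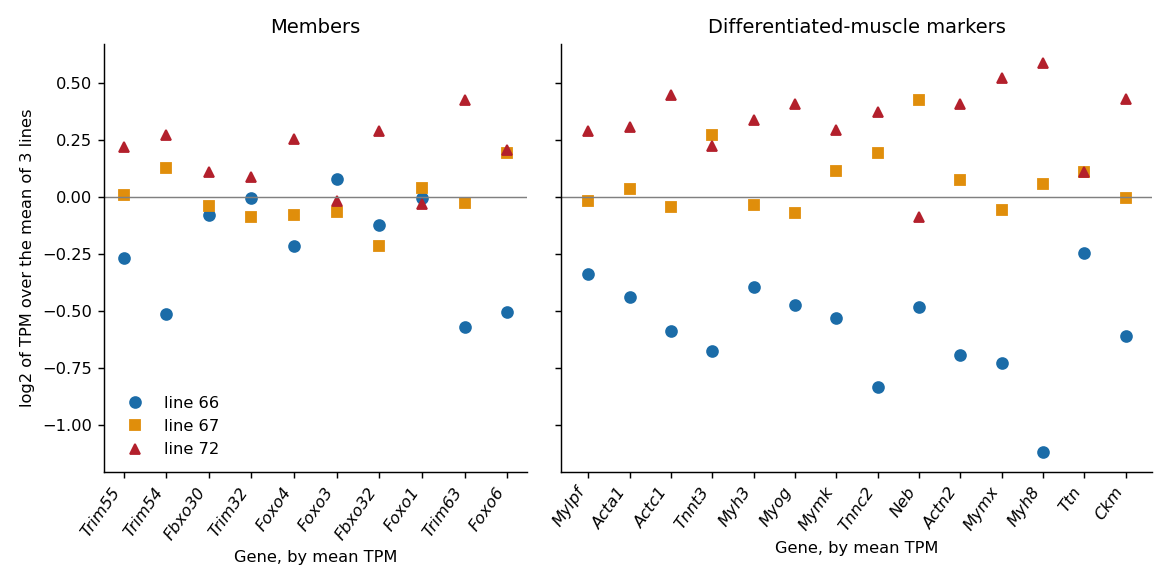
log2 of each line's TPM over the mean of the 3 lines, for the 10 genes on the left and the 14 markers of differentiated muscle on the right, both by falling mean TPM. Line 66 lies lowest in Trim55, Trim54, Fbxo30, Foxo4, Trim63 and Foxo6 and in all 14 markers, while the 3 lines nearly coincide in Foxo1.

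The genes whose profile over the 3 lines was nearest to that of Trim63, by the Euclidean distance of centred log2 TPM over genes averaging 10 TPM or more, were Mybph, which encodes a myosin-binding protein, at a distance of 0.014 (47.7, 69.9 and 94.3 TPM), Zeb1, a transcription factor, at 0.016 and Ephb2, an ephrin receptor, at 0.026. Within a distance of 0.1 there were 13 of 8428 genes. For Fbxo32 they were Ccser2 at 0.011, Baiap2 at 0.022 and Fhod1, a formin, at 0.023, and 82 of 8427 genes lay within 0.1. With 3 points a profile, such likeness describes these lines only.

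Foxo3 and Fbxo30 lie on chromosome 10, which stood apart in line 66. Over 427 of its genes that averaged 10 TPM or more, the log2 ratio of line 66 to the average of lines 67 and 72 had a median of 0.29 relative to all genes. For Foxo3 the ratio was 0.18 and for Fbxo30 -0.06, so they lay 0.11 and 0.34 below the chromosome's median. In line 72 the chromosome's median was -0.19, with Foxo3 at -0.09 and Fbxo30 at 0.11. The other 8 members lie on chromosomes 3, 4, 5, 15 and X, whose medians in line 66 were between -0.06 and 0.02. Whether the chromosome's shift moved Foxo3 or Fbxo30 was not tested.

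The members' transcripts showed a switch in Trim32 that the gene's level hid. Trim32-201 was at 4.72, 5.09 and 18.0 TPM in lines 66, 67 and 72, and Trim32-202 at 15.9, 14.3 and 3.91 TPM. Trim32-201 therefore held 23.0%, 26.2% and 82.2% of the TPM of the gene. Lines 66 and 67 were alike and line 72 was the reverse of them, while the whole gene differed by 1.13 times at most. In the annotation (GENCODE M21, GRCm38) the transcripts share exon 1 (chr4:65604986-65605069) and differ in the acceptor of exon 2, at 65613129 against 65613132, 3 bases apart and upstream of the coding sequence that starts at 65613208. Both have the same coding sequence in the annotation. Of their 31-base words, 30 of 3164 in Trim32-201 and 27 of 3161 in Trim32-202 were absent from the other, so the split rests on the reads over that junction alone, and how many there were is not given in the deposited values.

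Trim55, Fbxo30 and Foxo3 had nearly the same transcript make-up in the 3 lines. The summed level of Trim55 included Trim55-202, a processed transcript of 506 bases with no annotated coding sequence, at 14.5, 17.7 and 18.4 TPM. It made up 28.0% ± 1.65 of the TPM of Trim55 (SD, n = 3) but 5.64% of its estimated counts, since a short transcript gains in TPM per count. Without it Trim55 was at 35.8, 43.2 and 52.1 TPM. Fbxo30 was split between Fbxo30-201, at 60.5% ± 1.70, and Fbxo30-202, at 39.5% ± 1.70 of TPM (SD, n = 3), with little difference between lines. Foxo4-203, a processed transcript, held 8.32% ± 2.16 of Foxo4 (SD, n = 3). Foxo3 was carried almost wholly by Foxo3-203, at 98.0% ± 0.488 (SD, n = 3). Minor transcripts of other genes varied: Trim54-202 was at 1.46, 0.361 and 4.11 TPM beside 33.1, 53.4 and 55.4 TPM of Trim54-201, which made it 4.22%, 0.670% and 6.91% of the gene. In Trim63, Trim63-203 held 5.51%, 0.705% and 1.09%, and Trim63-204 held 5.74% in line 67 and 0 in the others, at no more than 10.3 estimated counts each. Of 25 listed transcripts of the 10 genes, 4 had at most 3 counts in every line, and Foxo1, Foxo6 and Fbxo32 had 1 transcript each.

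**Figure D3:**
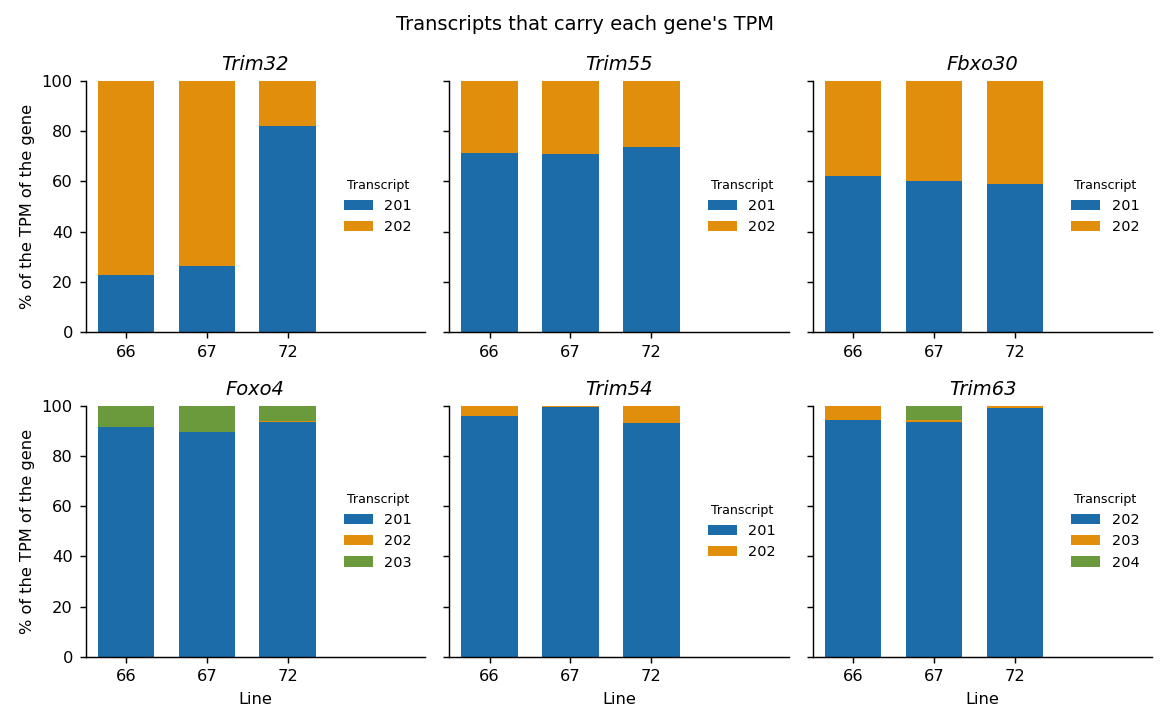
Share of each gene's TPM held by each of its transcripts with a TPM above 0, in percent, for lines 66, 67 and 72 in 6 of the genes. In Trim32 the share of transcript 201 is 23.0%, 26.2% and 82.2%, whereas in Trim55 and Fbxo30 the bars are nearly alike.

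The promoters of the MuRF genes are shown because Trim63 and Trim54 had the widest ranges over lines among the members that passed the filter. The promoter of Trim63 is known for adjoining binding elements of the glucocorticoid receptor and FoxO. The RefSeq promoters used here (GRCm38.p6) were matched for 6 of the 10 genes, Foxo1, Foxo3, Trim63, Trim54, Fbxo30 and Trim32, and those of Foxo4, Foxo6, Fbxo32 and Trim55 were not analysed here. The 250 bases before the start are printed for Trim63 (chr4:134314870-134315119, plus strand) and Trim54 (chr5:31116362-31116611, plus strand), 5′ to 3′, with motif matches in capitals.
Trim63: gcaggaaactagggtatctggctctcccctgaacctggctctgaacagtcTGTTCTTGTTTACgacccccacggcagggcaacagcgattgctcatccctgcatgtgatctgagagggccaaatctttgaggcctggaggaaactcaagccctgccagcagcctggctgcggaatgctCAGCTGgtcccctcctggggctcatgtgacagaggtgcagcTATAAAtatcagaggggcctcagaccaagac
Trim54: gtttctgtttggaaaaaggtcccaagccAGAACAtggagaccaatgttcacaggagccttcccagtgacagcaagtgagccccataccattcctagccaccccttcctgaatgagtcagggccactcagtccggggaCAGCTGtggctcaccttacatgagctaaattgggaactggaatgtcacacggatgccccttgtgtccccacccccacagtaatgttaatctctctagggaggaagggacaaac

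The letters searched, on both strands, were TGTTTAC for FoxO, TGTTCT for the glucocorticoid receptor, CAGCTG for the E-box of myogenic factors and TATAAA for the TATA box, in windows of 300 bases that reach 50 bases past the start. Trim63 held all 4. Its TGTTCT began 200 bases and its TGTTTAC 194 bases before the start, so that they adjoin with 0 bases between, and CAGCTG began 72 and TATAAA 31 bases before the start. Trim54 held TGTTCT on the minus strand at 222 bases and CAGCTG at 113 bases before the start, and Trim32 held CAGCTG at 107 bases before it. The windows of Foxo1, Foxo3 and Fbxo30 held none. Among 32851 promoters, 3.65% held TGTTTAC, 19.0% TGTTCT, 16.3% CAGCTG and 13.6% TATAAA. A match is a description of these letters and not a bound site.

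The 6 promoters differed in their CpG content. The ratio of observed to expected CpG was 0.289 in Trim63 and 0.0915 in Trim54, against 1.10 in Foxo1, 0.834 in Foxo3, 1.08 in Fbxo30 and 0.692 in Trim32, with a median of 0.384 over all promoters. Both MuRF promoters thus lay below the median and the other 4 above it, whereas the GC content of all 6, from 54% in Trim54 to 79.7% in Fbxo30, lay above the median of 52.7%. The RefSeq start differed from that of GENCODE M21 by 100 bases in Trim54, 60 in Foxo3 and 257 in Fbxo30.

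The genes around the members were described in 8 lists of 141 genes in all, of which 134 averaged 1 TPM or more and 0 stood apart in a line at 2-fold, beside 1.84% of the 12528 genes in some line. Upstream of FoxO, all 18 genes of the kinase input reached 1 TPM, a list that holds Prkaa1, Prkaa2, Stk3 and Stk4 beside the insulin and AKT arm. Akt1, the kinase that phosphorylates FoxO, was the highest at 253, 285 and 301 TPM, and Prkaa2, an AMPK subunit, the lowest at 1.73, 2.26 and 2.51 TPM. Sgk1, which phosphorylates FoxO as well, ran the other way to most members, at 49.0, 32.6 and 24.7 TPM, highest in line 66. It lies on chromosome 10, and whether the shift of that chromosome in line 66 moved Sgk1 was not tested.

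All 15 FoxO partners reached 1 TPM. Ywhae, an adaptor that holds phosphorylated FoxO in the cytoplasm, was at 1960, 1812 and 1748 TPM, and its relative Sfn at 1.25, 1.17 and 0.968 TPM. Skp2, which targets Foxo1 for breakdown, was at 23.3, 30.5 and 33.8 TPM. Among 18 FoxO target genes, 14 reached 1 TPM. Cdkn1a, the cell cycle inhibitor, was the highest at 364, 452 and 497 TPM, while the hepatic targets G6pc and Igfbp1 were at 0 in every line. Txnip, a brake on glucose uptake, was at 1.42, 2.97 and 5.84 TPM, and Pdk4, which turns off pyruvate oxidation, at 164, 167 and 99.2 TPM, so that these targets were ordered oppositely between lines 66 and 72.

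The 16 autophagy genes under FoxO3 all reached 1 TPM, with a median difference of line 72 to line 66 of -0.02 on the log2(TPM + 1) scale, against 0.31 in the members and 0.07 in all 12528 genes. Sqstm1, an autophagy receptor, was the highest at 586, 463 and 466 TPM and Tfeb the lowest at 1.86, 2.77 and 1.95 TPM. Map1lc3b, the autophagosome marker, was at 96.1, 84.7 and 98.1 TPM. Of these 16 genes 2 followed the sequence of line 66 below 67 below 72 by TPM, beside 27.0% of all 12528 genes. That share of all genes was 17.8% with TMM-scaled CPM.

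Of 19 other ligases of muscle, 18 reached 1 TPM. Nedd4 was the highest at 771, 837 and 867 TPM, above Trim55 in every line, and Fbxo40, which targets Irs1, was the lowest at 0.197, 0.488 and 0.278 TPM. The substrate target of Fbxo40, Irs1, was at 37.2, 30.2 and 39.6 TPM. All 17 genes of the general ubiquitin machinery averaged over 10 TPM, the lowest being Ube2g1 at 30.8, 26.3 and 29.9 TPM. Cul1, Skp1a and Rbx1, with which Fbxo32 and Fbxo30 assemble, were at means of 124 ± 20.5, 403 ± 42.8 and 145 ± 9.13 TPM (SD, n = 3), above both F-box genes.

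Among 16 substrates of the ligases, 14 reached 1 TPM. Vim, an intermediate filament protein of myoblasts, was the highest at 8091, 8693 and 7194 TPM, and Mybpc2 the lowest at 0.0229, 0.0187 and 0.0244 TPM. The Fbxo32 substrates Myod1 and Eif3f were at 791, 702 and 579 TPM and at 124, 114 and 120 TPM. Of the Trim63 substrates of the thick filament, Mybpc1 was at 7.45, 14.5 and 23.7 TPM and Myl1 at 169, 287 and 340 TPM, both lowest in line 66, while Mybpc2, at 3 or 4 counts a line, was not. Ckm, Tnnt3 and Mylpf stand in both this list and the markers of differentiated muscle. Dtnbp1 (dysbindin), a Trim32 substrate, was at 31.5, 35.3 and 34.7 TPM.

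All 22 genes of the inputs to atrophy reached 1 TPM. Tnfrsf12a, the receptor of TWEAK, was the highest at 307, 336 and 305 TPM, and Il6ra the lowest at 0.947, 1.30 and 0.863 TPM. Nr3c1, the glucocorticoid receptor, was at 10.4, 14.6 and 12.5 TPM, and its targets Fkbp5 at 24.0, 29.6 and 34.8 TPM and Tsc22d3 at 25.3, 22.5 and 20.3 TPM ran in opposite orders. Mstn (myostatin) was at 3.91, 6.47 and 10.7 TPM, lowest in line 66 and highest in line 72. For Fbxo30, the BMP arm that restrains it was present, with Bmpr1a at 63.6, 68.2 and 74.7 TPM.

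**Figure D4:**
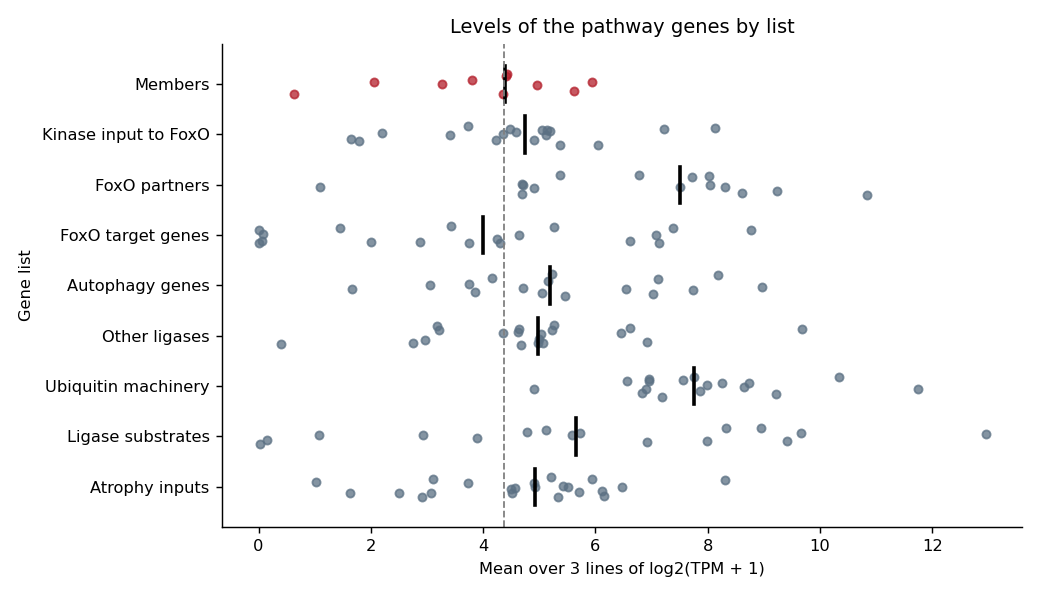
Mean over 3 lines of log2(TPM + 1) of each gene in the members and the 8 pathway lists, with a black bar at each list's median and a dashed line at 4.38, the median of all genes averaging 1 TPM or more. The ubiquitin machinery (median 7.75) and the FoxO partners (7.50) lie far to the right of the members (4.38), and the FoxO targets (3.995) lie to the left.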

How the data were processed

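Poly-A-selected RNA (TruSeq Stranded mRNA) of 3 edited Dmdmdx; Pax7-nGFP myoblast lines was analysed as 1 group. Per the labels' processing notes, bcl2fastq 2.20, fastp 0.20 and kallisto 0.46.1 were used with build GRCm39, and the annotation release and strand setting are not given in the sources used here. The authors deposited, for each transcript, estimated counts that kallisto splits between the transcripts a read fits, and TPM, which divides them by effective length and scales to 1000000 a library.

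Transcripts were matched by identifier to GENCODE M21 (GRCm38), which gave symbols and coordinates, since the files hold none. Of 121798 transcripts 1112 had no match, which held between 0.493% and 0.535% of counts and were left out. TPM and estimated counts were summed per gene. Levels were log2(TPM + 1). Totals of 66972426 to 73274315 estimated counts put 3 counts, the limit a count of 0 allows, at 0.0409 to 0.0448 CPM. Estimated counts were rounded and fitted with edgeR 4.0.16 (TMM, intercept only, R 4.3.3), and DESeq2 1.42.0 size factors were an alternative. The edgeR fit was also run on simulated data. Other steps used Python 3.11.15.

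The rule for named genes took all members, the highest and lowest gene of each of the 8 pathway lists, list genes more than 2-fold apart in a line, genes whose known role ties them to a member, and the 3 nearest profiles of Fbxo32 and Trim63. Of the genes so taken, 1 is not reported here. Members, lists and rules were chosen with earlier results of these data known. With 1 condition no test between conditions was made. Alternatives were the pseudocount (0.1), CPM, TMM and DESeq2 scaling, protein-coding transcripts only, other filters and folds, and leaving out each line.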

Additional observations from a re-analysis of the deposited data

How the results depend on the processing

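The median level of the 10 genes, 4.38 on the log2(TPM + 1) scale, was 4.32 with a pseudocount of 0.1, 5.61 by CPM, and 5.62 with either TMM-scaled CPM or DESeq2 size factors, where it is no longer per length. Without 1 of the lines it lay between 4.32 and 4.41. CPM turned 3 neighbours in the order, Trim54 to Fbxo30 (-0.26), Trim32 to Foxo4 (-0.044) and Foxo4 to Foxo3 (-1.05), and protein-coding transcripts turned Trim55 to Trim54 (-0.15) and Foxo4 to Foxo3 (-0.066), all as log2 differences. Of the 9 pairs, 7 kept their order in every line, and 5 to 8 did so under the alternatives. No member stood apart except at 1.5-fold, where 1 did, Trim54. All genes standing apart numbered 231, against 933 at 1.5-fold, 91 of those averaging 10 TPM or more, 499 on TPM without a pseudocount, an alternative chosen after seeing the data, and 217 to 273 between the lines left when 1 was left out. The share of Trim32-201 in its gene, 43.8% on average, was 24.6% without line 72 and 54.2% without line 66, so line 72 decides it. The median coefficient of variation of the members, 0.146, lay between 0.109 and 0.164 without 1 of the lines. The chromosome 10 shift in line 66 lay between 0.25 and 0.32 under its alternatives, and 133 or 134 pathway genes reached 1 TPM under theirs. Of 167 values of single genes, pairs, transcripts or line orders under alternatives, 125 counted as the same, 37 moved and 5 changed sign. Pairs counted as the same when they kept their sign, and other values when they stayed within their spread or count limit. By CPM the log2 difference of Foxo1 to Trim63 went from 1.21 to 3.44 and still counted as the same. No paired analysis was possible because all lines share 1 condition. Depth limits Foxo6 and Trim63 most, with at most 99 and 355 estimated counts.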
